A study of Mus musculus and Homo sapiens with 40 samples.

Results

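The sites described here are CEBPA sites that were called in cells with the long isoform of CEBPA and in none of the lists from cells with the short one. They were chosen by their presence and absence in 4 peak lists. A site of the anti-CEBPA list of p42-expressing cells was kept when at least 1 bp overlapped a peak of the anti-ER list of the same cells and none overlapped a peak of the anti-CEBPA or anti-ER list of p30-expressing cells. On chromosomes 1 to 19 and X, 1240 of 47489 anti-CEBPA sites of p42-expressing cells met this rule and are called p42-only sites. Presence in the 4 CEBPA lists, and the fold enrichments and ranks in them, are therefore descriptions and not findings.

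The study transduced HPC-7, a mouse hematopoietic progenitor line, with a retrovirus (pMSCV-IRES-GFP) that carried CEBPA-p42-ERT2 or CEBPA-p30-ERT2 and sorted the GFP-positive cells. Both lines therefore shared the vector, the ERT2 fragment of a modified estrogen receptor and any endogenous CEBPA. According to the study's methods, such cells received hydroxytamoxifen before experiments to move the fusion into the nucleus, which the sample labels do not name. The CEBPA lists came from 1 untreated library for each antibody and line, the H3K4me1 lists from the pooled untreated samples of each line (2 by the labels), and the H3K27ac lists from 3 pooled samples per line, untreated or given LPS at 100 ng/mL for 2 h. Isoform and transduced line were 1 variable here and cannot be told apart.

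CEBPA is a basic leucine zipper factor of the myeloid lineage. It binds DNA as a dimer, either with itself or another C/EBP, or with a member of the ATF or AP-1 families, and the dimer reads a palindrome made of a pair of TTGC-like arms. The p30 isoform starts at an internal methionine. It lacks the N-terminal activation region of p42 and keeps the DNA-binding and dimerization domain. Acetylation of histone H3 at lysine 27 (H3K27ac) marks active enhancers and promoters, and H3K4me1 marks enhancers whether active or not.

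The windows below show what lies around the p42-only summits. They run 5′ to 3′ on the plus strand of mm39 and are centred on the anti-CEBPA summit. Capitals mark matches, on either strand, to a C/EBP dimer sequence (TTGCGCAA, TTGCACAA or TTGCGTAA, called the CEBP sequence), to the composite sequences of a C/EBP arm with ATF4 (TGATGCAA), a CRE-type partner (TGACGCAA) or an AP-1-type partner (TGTTGCAA), or to a single C/EBP arm (TTGCG or TTGCA). The first 3 are the best ranked p42-only sites with a CEBP sequence in the 200 bp around the summits of both antibodies. The match need not lie at the summit itself.
Cep85l site, chr10:53283609-53283808: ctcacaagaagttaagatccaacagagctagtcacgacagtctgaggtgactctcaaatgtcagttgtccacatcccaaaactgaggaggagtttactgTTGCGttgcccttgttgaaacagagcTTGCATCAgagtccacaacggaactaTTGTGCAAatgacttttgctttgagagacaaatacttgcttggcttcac
Slc25a17 site, chr15:81223518-81223617: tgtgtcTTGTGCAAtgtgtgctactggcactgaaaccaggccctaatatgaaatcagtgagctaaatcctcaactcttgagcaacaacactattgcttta
Bcr site, chr10:75001654-75001753: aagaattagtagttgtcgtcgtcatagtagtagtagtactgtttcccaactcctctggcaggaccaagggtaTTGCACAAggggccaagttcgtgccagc
The next 2, with the Cep85l site above, are the best ranked with a composite sequence.
Ube3d site, chr9:86238018-86238117: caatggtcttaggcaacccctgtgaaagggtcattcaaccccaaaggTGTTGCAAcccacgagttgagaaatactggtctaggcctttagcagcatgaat
Cdk5rap2 site, chr4:70215028-70215227: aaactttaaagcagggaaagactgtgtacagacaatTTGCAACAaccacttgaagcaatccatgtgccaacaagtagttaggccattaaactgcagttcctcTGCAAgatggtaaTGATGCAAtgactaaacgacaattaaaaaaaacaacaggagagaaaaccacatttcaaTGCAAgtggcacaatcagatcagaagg
The next is 1 of the best ranked distal sites with H3K27ac in both p42 lists and in neither p30 list.
Reep3 site, chr10:66684749-66684848: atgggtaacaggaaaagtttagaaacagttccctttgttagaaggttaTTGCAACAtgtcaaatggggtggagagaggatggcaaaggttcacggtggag
The last 4 have a gene of inflammatory signalling or of progenitor homing as the nearest gene.
Nfkbiz site, chr16:55602285-55602384: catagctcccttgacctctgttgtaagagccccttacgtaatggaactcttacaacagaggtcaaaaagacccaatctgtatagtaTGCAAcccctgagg
Tlr4 site, chr4:66740119-66740218: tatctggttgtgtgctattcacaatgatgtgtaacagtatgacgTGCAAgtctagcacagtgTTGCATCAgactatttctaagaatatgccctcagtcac
Il6 site, chr5:30177985-30178084: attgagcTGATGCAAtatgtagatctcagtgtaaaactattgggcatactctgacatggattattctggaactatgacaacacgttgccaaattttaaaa
Cxcr4 site, chr1:128514637-128514836: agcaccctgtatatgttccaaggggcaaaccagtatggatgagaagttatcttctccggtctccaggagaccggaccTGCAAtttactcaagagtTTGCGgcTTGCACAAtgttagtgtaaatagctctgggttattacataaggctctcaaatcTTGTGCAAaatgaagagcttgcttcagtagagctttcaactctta
The Nfkbiz window held a single C/EBP arm and no CEBP or composite sequence, whereas the Cxcr4 window held the CEBP sequence at 2 places. The Nfkbiz window also held TTACGTAA, which is not capitalised here. It was searched as the NFIL3 sequence (TTACGTAA or TTATGTAA), present at 55 of 1240 p42-only sites (4.44%).

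The p42-only sites came from the weaker part of the p42 lists. Of the 47489 anti-CEBPA sites of p42-expressing cells, 18088 (38.1%, Wilson 95% interval 37.7 to 38.5) overlapped an anti-ER peak of the same cells, and the 1240 p42-only sites were 6.86% of these. Another 13366 (73.9%) were in both p30 lists, 2826 (15.6%) in the anti-ER p30 list alone and 656 (3.63%) in the anti-CEBPA p30 list alone. These 16848 sites are called shared sites below. The requirement of both antibodies was decisive for the number, since 16402 anti-CEBPA sites of p42-expressing cells overlapped no p30 peak and only 1240 of those (7.56%) had an anti-ER peak, against 54.2% (53.6 to 54.7) of the sites that overlapped a p30 peak. The other 15162 sites without a p30 peak had the anti-CEBPA signal alone.

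At the p42-only sites the fold enrichment over the local background had a median of 6.72 with anti-CEBPA (range 1.87 to 18.1) and of 5.76 with anti-ER (range 1.92 to 21.7). At shared sites the medians were 12.1 and 8.56. With 10 equal classes of anti-CEBPA rank over the sites of both antibodies, no p42-only site lay in the strongest 2 classes, 2 lay in the third and 410 in the weakest, where they were 22.7% of the class. By anti-ER rank the share went from 0.111% in the strongest class to 20.8% in the weakest. The summits of the antibodies lay a median of 20 bp apart at p42-only sites and 11 bp apart at shared sites, and 1063 of 1240 (85.7%) were within 50 bp of each other.

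**Figure D1:**
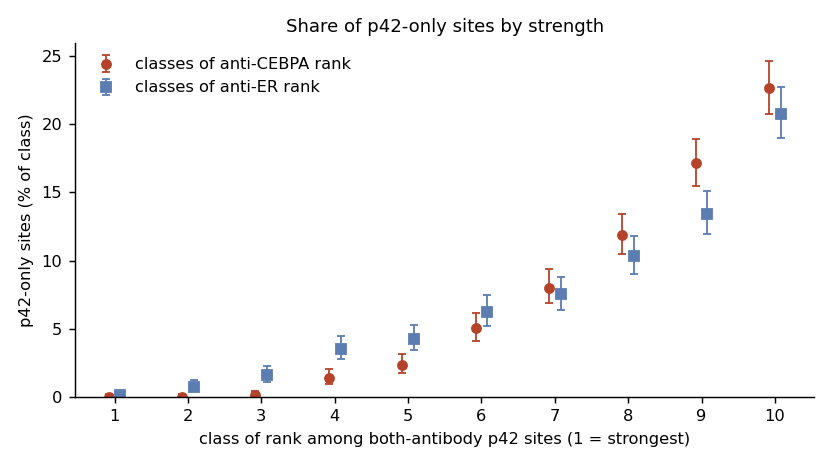
Share of p42-only sites (vertical axis, % of each class) in 10 classes of rank among the 18088 sites of p42-expressing cells found with both antibodies (horizontal axis, 1 is the strongest), by anti-CEBPA rank (circles) and by anti-ER rank (squares). Bars are Wilson 95% intervals. The share went from 0 to 22.7% by anti-CEBPA rank and from 0.111% to 20.8% by anti-ER rank.

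At the edge of the rule, the p42-only sites closest to a p30 peak lay 16 bp (nearest gene Psd2), 39 bp (Cebpg) and 87 bp (Slc26a9) from it, and the excluded sites with the smallest overlap shared 48 bp (Got2), 65 bp (Uvrag) and 72 bp (Hmgxb4) with a p30 peak. Their anti-CEBPA fold enrichments were 4.80, 4.80 and 5.39 just inside the rule and 5.28, 3.84 and 3.85 just outside it. Such edge cases were few. The gap to the nearest p30 peak had a median of 9822 bp, 101 sites (8.15%) lay within 1 kb, and 611 (49.3%) lay over 10 kb away. The farthest were 2 neighbouring intergenic sites on chromosome 12, 386458 and 385122 bp from a p30 peak, and a site in an exon on chromosome 13 near Cts3, 350899 bp away.

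A check of the cells' identity used H3K27ac peaks at start sites. All 12 progenitor markers fixed for the check (among them Cd34, Kit, Gata2, Runx1 and Tal1) had a peak in each of the 4 H3K27ac lists. The lists differed in size. In p42-expressing cells anti-CEBPA gave 47489 sites and anti-ER 23210, in p30-expressing cells they gave 31823 and 33952, the 4 H3K27ac lists held 107114 to 142385 peaks, and H3K4me1 gave 134650 in p42- and 168028 in p30-expressing cells. Read depth is unknown from these lists. Absence from a list means that no peak was called, not that no protein was bound. No value below has a replicate check, no p-value is given, and intervals cover counting error over sites only.

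The C/EBP dimer sequence was present at fewer p42-only sites than at shared sites, and a looser form of it was common. Within 200 bp around the summit, 170 of 1240 p42-only sites (13.7%, 11.9 to 15.7) held the CEBP sequence, against 31.0% of shared sites and 0.444% of windows 5 kb to either side. The exact palindrome TTGCGCAA was found at 7 p42-only sites (0.565%) and at 4.68% of shared sites. Over all 47489 anti-CEBPA sites of p42-expressing cells the shares were 23.4% for the CEBP sequence and 2.18% for the palindrome. The size of the difference depended on how strength was matched. When the shared sites were weighted to the anti-CEBPA rank classes of the p42-only sites, 14.7% held the CEBP sequence, a difference of −1.02 percentage points (interval −3.08 to 1.04). With weights by anti-ER rank the shared sites stood at 25.6% and the difference at −11.8 points (−14.0 to −9.73). The interval took in 0 under the first weighting and not under the second. Against the shared sites in only 1 p30 list, weighted by anti-CEBPA rank, the difference was 1.45 points (−0.758 to 3.66). Against those in both p30 lists it was −2.24 points (−4.45 to −0.0296).

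Reading the windows led to a looser pattern, TTGCNNAA, which leaves the central bases free and was added after the sequences had been seen. It includes all 3 forms of the CEBP sequence. It was present at 620 p42-only sites (50.0%, 47.2 to 52.8), at 57.6% of shared sites, at 35.1% (32.2 to 38.0) of p30-only sites and at 7.42% of windows 5 kb away from the p42-only sites. Weighted by anti-CEBPA rank, 44.4% of shared sites held it, so that p42-only sites stood 5.58 points higher (2.55 to 8.60). Weighted by anti-ER rank the difference was −1.01 points (−3.99 to 1.97), so its direction depended on the antibody that set the ranks. Because the pattern came from reading p42-only windows, each of these comparisons can favour the p42-only sites. The intervals do not allow for this.

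Of the 3 composite sequences, the CRE-type one was less common at p42-only sites than at shared sites of like rank by either antibody. It was present at 16 p42-only sites (1.29%, 0.796 to 2.09), against 2.18% of shared sites weighted by anti-CEBPA rank, a difference of −0.893 points (−1.61 to −0.180). With weights by anti-ER rank the difference was −1.77 points (−2.50 to −1.04). Against the shared sites in only 1 p30 list, weighted by anti-CEBPA rank, it was −0.605 points (−1.39 to 0.183), an interval that took in 0. The C/EBP:ATF4 sequence was present at 82 p42-only sites (6.61%, 5.36 to 8.13), against 5.86% of rank-weighted shared sites and 0.766% of windows 5 kb away. The interval of the difference ran from −0.732 to 2.24 points, and with weights by anti-ER rank from −3.40 to −0.376. The C/EBP:AP-1 sequence was present at 77 (6.21%), against 5.81% and 0.685%. At least 1 CEBP or composite sequence was present at 331 sites (26.7%, 24.3 to 29.2), and a single C/EBP arm at 876 (70.6%), against 32.0% of windows 5 kb away. The CEBP sequence sat close to the summit. Among the p42-only sites that held it, the median distance was 17 bp, and 76.5% of the matches lay within 30 bp. At shared sites the median distance was 6 bp and 90.8% lay within 30 bp.

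**Figure D2:**
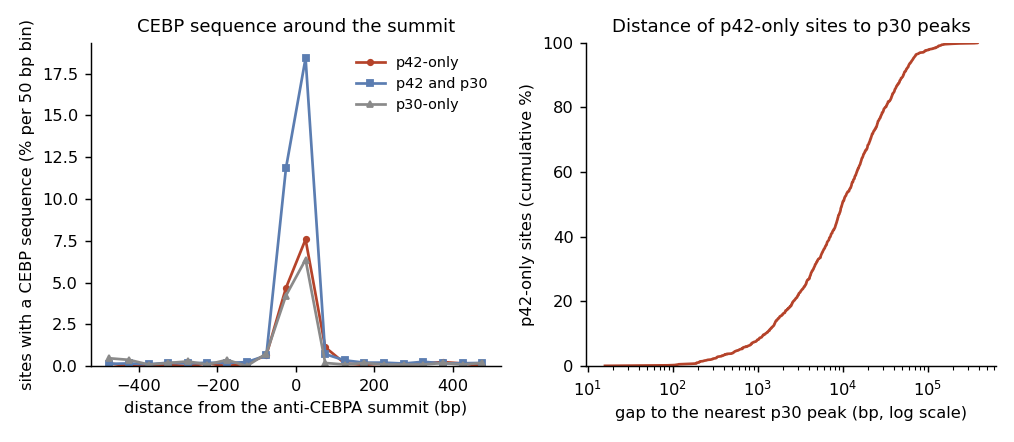
Left, share of sites with a CEBP sequence (vertical axis, % of sites per bin of 50 bp) by distance from the anti-CEBPA summit (horizontal axis, bp) for p42-only, shared (p42 and p30) and p30-only sites. Right, cumulative share of p42-only sites (vertical axis, %) by gap to the nearest p30 peak (horizontal axis, bp, log scale). Matches gathered at the summit in all 3 classes, at a median distance of 17 bp in p42-only and 6 bp in shared sites, and the gap had a median of 9822 bp.

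Of the sequences of other factors active in hematopoietic cells, those of PU.1, ETS, RUNX, E-boxes and NF-kB were less common at p42-only sites than at shared sites of like anti-CEBPA rank. The PU.1 sequence (GAGGAAGT), read by a factor that opens myeloid enhancers, was present at 41 sites (3.31%, 2.45 to 4.45), against 6.15% of rank-weighted shared sites, a difference of −2.84 points (−4.00 to −1.68). ETS sequences (CCGGAAG or ACAGGAAG) stood at 4.35% against 7.71%, the RUNX sequence (TGTGGTT) at 6.69% against 9.85%, and E-boxes (CAGCTG or CAGGTG) at 14.9% against 19.7%. The NF-kB sequence, searched by its consensus, stood at 1.77% against 3.24%. With weights by anti-ER rank these differences shrank to −0.472, −0.868, −0.361, −2.22 and −0.710 points. Only the E-box interval (−4.36 to −0.0749) then left out 0. Against the shared sites in only 1 p30 list, weighted by anti-CEBPA rank, the NF-kB difference was −0.724 points (−1.65 to 0.199). The PU.1, ETS, RUNX and E-box intervals stayed below 0 there. The GATA sequence (AGATAAG) stood at 2.42% against 3.00% by anti-CEBPA rank, with an interval of the difference from −1.53 to 0.373. The AP-1 sequence (TGACTCA) was present at 80 sites (6.45%) and at 7.29% of the shared sites weighted by anti-CEBPA rank, with an interval of the difference from −2.35 to 0.666. With weights by anti-ER rank the shared sites stood at 5.33%. The AP-1 difference was then 1.13 points (−0.317 to 2.57), so its sign depended on the antibody that set the ranks. A control made of the AP-1 letters in reverse (ACTCAGT) was present at 3.79% of the p42-only windows and 3.67% of the windows 5 kb away. An estrogen response element, searched by its consensus because the fusion carries a receptor fragment, was present at 2 p42-only sites (0.161%).

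**Figure D3:**
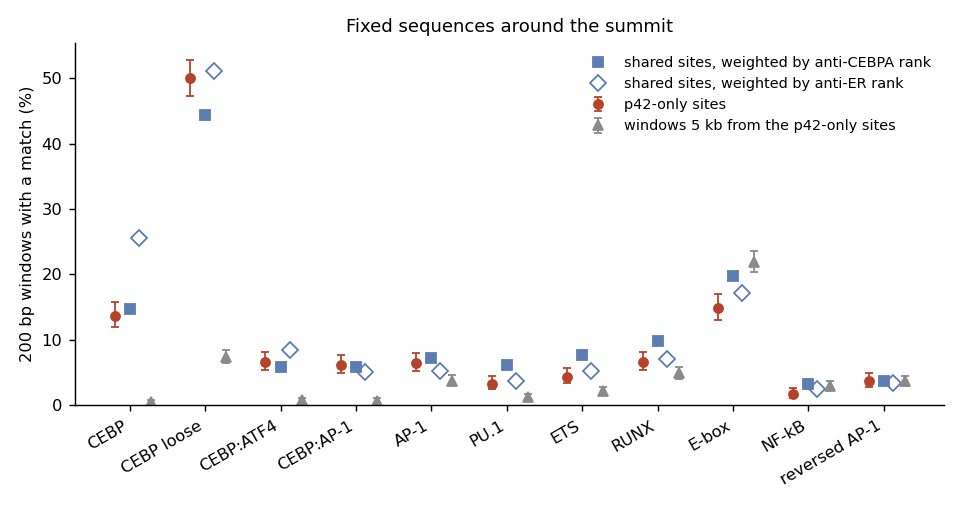
Share of 200 bp windows with a match (vertical axis, %) for 11 fixed sequences (horizontal axis), at the p42-only sites (circles), at the shared sites weighted by anti-CEBPA rank (filled squares) or by anti-ER rank (open diamonds), and 5 kb to either side of the p42-only sites (triangles). Bars are Wilson 95% intervals. The CEBP sequence stood at 13.7% of p42-only sites, between 14.7% and 25.6% at weighted shared sites, and at 0.444% of windows 5 kb away.

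The p42-only sites were mostly distal. Of 1240, 66 (5.32%, 4.21 to 6.72) had the summit in a promoter, 98 (7.90%) in an exon, 572 (46.1%) in an intron and 504 (40.6%) between genes. Promoters began 1000 bp before and ended 100 bp after the start site of any transcript of a protein-coding gene. At shared sites the promoter share was 8.07%. Weighted by anti-CEBPA rank it was 11.2%, a difference of −5.85 points (−7.32 to −4.38), and by anti-ER rank the difference was −2.71 points (−4.09 to −1.33). The p42-only sites lay a median of 13768 bp from the nearest start site, and 262 (21.1%) lay over 50 kb away, against 29.6% of shared sites. The sites with the anti-CEBPA signal alone lay farther out, 52.6% of them over 50 kb from a start site. The p42-only sites lay a median of 23170 bp from the nearest shared site, and shared sites a median of 27842 bp from another shared site. Of the p42-only sites 28.8% were within 10 kb of a shared site, and of the shared sites 27.2% were within 10 kb of another. Within 50 kb the shares were 70.0% and 64.7%. On single chromosomes the p42-only share of the sites of both antibodies ran from 5.30% (chromosome 19, 3.74 to 7.47) to 9.06% (chromosome X, 6.11 to 13.2), and both intervals took in the 6.86% of all chromosomes.

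At p42-only sites both histone marks leaned to the lists of p42-expressing cells. The histone libraries were not used to choose the sites. The summit of 419 p42-only sites (33.8%, 31.2 to 36.5) lay in an untreated H3K27ac peak of p42-expressing cells and that of 240 (19.4%, 17.3 to 21.6) in one of p30-expressing cells, a paired difference of 14.4 percentage points (12.2 to 16.7). In windows 5 kb to either side the shares were 14.0% and 13.6%. A p42 peak without a p30 peak was found at 206 p42-only sites (16.6%, 14.6 to 18.8), where the background over all 18088 sites of both antibodies was 8.59%. The reverse was found at 27 (2.18%), with a background of 2.88%. At shared sites the shares were 40.4% and 35.4%, a difference of 5.06 points (4.57 to 5.56).

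The lean to p42 was also larger than at shared sites of like strength. A p42 H3K27ac peak without a p30 peak was found at 8.90% of shared sites weighted by anti-CEBPA rank and at 5.92% of those weighted by anti-ER rank, against 16.6% of p42-only sites. These are differences of 7.72 points (5.54 to 9.90) and 10.7 points (8.56 to 12.8). The shared sites in only 1 p30 list also leaned to p42, by 10.1 points untreated (8.79 to 11.4). Weighted by anti-CEBPA rank, 12.4% of these had a p42 peak without a p30 peak. Against them the difference was smaller, 4.18 points (1.81 to 6.55), so the lean was not particular to p42-only sites. The untreated p30 list was the one that stood low. It held 19.4% of p42-only sites and, with the weightings, 52.6% or 30.5% of shared sites. For the p42 list the comparison turned on the antibody. The 33.8% of p42-only sites stood against 57.8% of shared sites weighted by anti-CEBPA rank, a difference of −24.0 points (−26.9 to −21.2), and against 33.6% weighted by anti-ER rank, a difference of 0.192 points (−2.62 to 3.00).

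Around the summit the p42 list again held more p42-only sites than the p30 list. The unweighted p42 share, lower than at shared sites at the summit (33.8% against 40.4%), was not lower within 1000 bp. A p42 H3K27ac peak lay within 1000 bp of the summit at 58.4% (55.6 to 61.1) of p42-only sites and 56.7% (55.9 to 57.4) of shared sites, and a p30 peak at 38.0% (35.3 to 40.7) and 50.3% (49.5 to 51.0). The untreated p42 H3K27ac peaks at p42-only sites were smaller than those at shared sites but mostly wider than the list's median. They ranked at a median of 20.6% from the top and had a median width of 1367 bp. At shared sites the medians were 9.49% and 2523 bp, and over the whole list the median width was 438 bp. Wide peaks are more likely to hold a given point, so widths above the list's median can arise for any set of sites.

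H3K4me1 went against the trend of the other sites. The summit of 281 p42-only sites (22.7%, 20.4 to 25.1) lay in an H3K4me1 peak of p42-expressing cells and that of 207 (16.7%, 14.7 to 18.9) in one of p30-expressing cells, a difference of 5.97 points in favour of p42 (3.80 to 8.13). At shared sites the shares were 17.9% and 25.7%, a difference of −7.79 points (−8.40 to −7.18). A p42 peak without a p30 peak was found at 133 p42-only sites (10.7%), where the background over the sites of both antibodies was 4.94%, and a p30 peak without a p42 peak at 59 (4.76%), where it was 11.8%. The longer H3K4me1 list was that of p30-expressing cells. No mark list at all held the summit of 636 p42-only sites (51.3%, 48.5 to 54.1). The sites with the anti-CEBPA signal alone were barer still, with 4.34% in the untreated p42 H3K27ac list and 90.7% in no mark list.

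**Figure D4:**
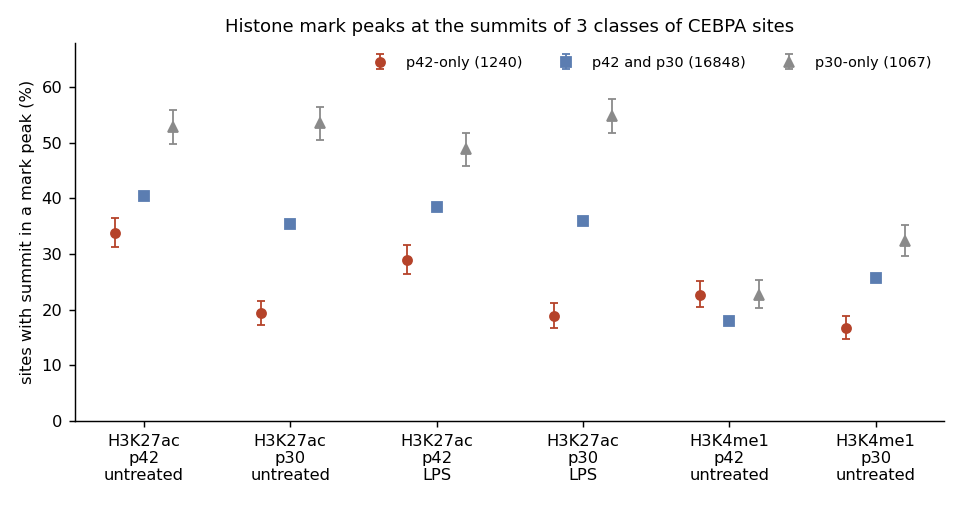
Share of sites with the summit in a histone mark peak (vertical axis, %) for 6 mark lists (horizontal axis) at 1240 p42-only sites (circles), 16848 shared sites (squares) and 1067 p30-only sites (triangles). Bars are Wilson 95% intervals, smaller than the symbol for shared sites. At p42-only sites the shares of the p42 lists stood above those of the p30 lists for both marks (33.8% and 19.4% for untreated H3K27ac, 22.7% and 16.7% for H3K4me1), while for H3K4me1 the shared sites ran the other way (17.9% and 25.7%).

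The mirror set of 1067 p30-only sites, found with both antibodies in p30-expressing cells and with neither in p42-expressing cells, leaned to p30 in H3K27ac with LPS, while untreated the interval took in 0. Untreated, the shares were 52.9% (49.9 to 55.8) in the p42 and 53.5% (50.5 to 56.5) in the p30 list, a difference of −0.656 points (−2.46 to 1.15), whose interval did not overlap that of the p42-only sites. With LPS the p30 list held more of them, a difference of −6.00 points (−7.91 to −4.09), where 88 sites were in the p30 list alone and 24 in the p42 list alone. For H3K4me1 the p30-only sites stood at 22.7% in p42 and 32.4% in p30 (−9.75 points, −12.1 to −7.37). The p30-only sites were also more often in promoters (15.6%, 13.5 to 17.9, against 5.32%) and held the PU.1 sequence more often (6.19%, 4.89 to 7.79, against 3.31%). Their median GC content around the summit was 47.0%, against 44.0% at p42-only sites. The CEBP sequence stood at 11.5% (9.75 to 13.6), which overlapped the interval of the p42-only sites. The p30-only sites ranked in the lists of another library pair, so their strength and that of the p42-only sites were not compared.

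LPS, the bacterial lipopolysaccharide that signals through Toll-like receptor 4, was given for 2 h before H3K27ac was measured. The share of p42-only sites in H3K27ac went from 33.8% untreated to 29.0% (26.5 to 31.5) with LPS in p42-expressing cells, a paired change of −4.84 points (−6.86 to −2.82). In p30-expressing cells it went from 19.4% to 18.9%, a change of −0.484 points (−2.11 to 1.14). In p42-expressing cells 306 sites kept H3K27ac, 113 had it untreated only and 53 had it with LPS only. In p30-expressing cells 184 kept it, 56 had it untreated only and 50 had it with LPS only. The p42 list with LPS was also the shortest of the 4. When every list was cut to an equal number of peaks, the changes were −3.95 and −0.484 points. At shared sites the change in p42-expressing cells was −1.96 points (−2.39 to −1.53). It was −3.27 points (−4.37 to −2.17) at the shared sites in only 1 p30 list and −4.03 points (−5.71 to −2.35) at p30-only sites. Both of these intervals overlapped that of the p42-only sites. The difference between the lines had no replicates to test it. With LPS, the p42 list still held more p42-only sites than the p30 list, by 10.1 points (7.97 to 12.2).

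Over the 4 H3K27ac lists, 743 p42-only sites (59.9%) were in none and 165 (13.3%) in all, against 53.5% and 28.6% of shared sites. Both p42 lists and neither p30 list held 87 p42-only sites (7.02%, 5.72 to 8.57) and 3.00% of shared sites, and the reverse held for 8 p42-only sites (0.645%). The other 237 had mixed patterns. Among the 206 sites with H3K27ac in untreated p42- and not p30-expressing cells, 24 (11.7%) held the CEBP sequence, 17 (8.25%, 5.22 to 12.8) the AP-1 sequence and 10 (4.85%) lay in promoters. These intervals overlapped those of all p42-only sites. Sites in no H3K27ac list held the CEBP sequence at 15.9% (13.4 to 18.7).

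**Figure D5:**
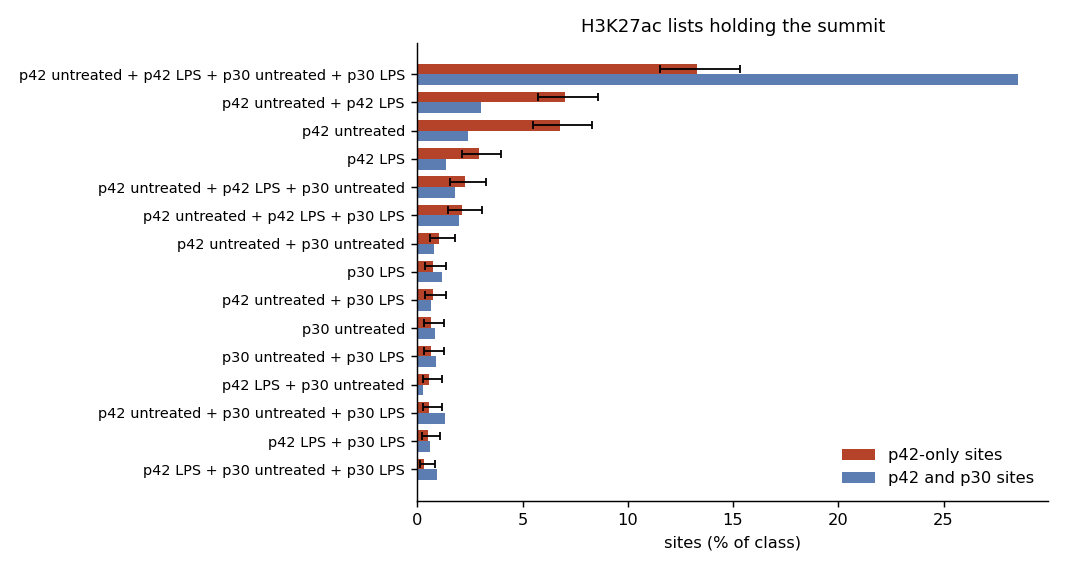
Combinations of the 4 H3K27ac lists that held the summit (vertical axis) and the share of sites with each (horizontal axis, % of class) for 1240 p42-only sites (red, with Wilson 95% intervals) and 16848 shared sites (blue). Sites in no list are not drawn (59.9% and 53.5%). All 4 lists held 13.3% of p42-only and 28.6% of shared sites, and the p42 lists alone held 7.02% and 3.00%.

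The best ranked p42-only sites, by the mean of their rank percentiles in the anti-CEBPA and anti-ER lists, had fold enrichments of 13.4 to 17.3 with anti-CEBPA and 12.3 to 21.7 with anti-ER. The first lay in an exon at chr6:146963164-146963533, 589 bp downstream of a start site of Mrps35, a mitochondrial ribosomal protein gene, with H3K27ac in the untreated p42 list alone. The second lay in an intron at chr14:56792241-56792566, 2453 bp upstream of a start site of Cpap, a centriole assembly gene, again with untreated p42 H3K27ac alone. The third, at chr9:86237919-86238232 in an intron 108902 bp from a start site of the ubiquitin ligase gene Ube3d, was in no mark list, and neither was the fourth, an intergenic site at chr10:53283574-53284054 near the centrosomal gene Cep85l. The fifth, at chr16:55602177-55602496, lay between genes 36543 bp from Nfkbiz, which encodes the atypical inhibitor IkB-zeta, an LPS-induced partner of NF-kB. It was in the p42 H3K27ac list with LPS and the p42 H3K4me1 list, and in no p30 list. The nearest gene is a position only. No measurement here ties a site to a gene.

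Of the distal sites in both p42 H3K27ac lists and neither p30 list, the best ranked were at chr10:111822405-111822698 in an exon of a transcript 6845 bp from a start site of Glipr1 (fold 9.87 with anti-CEBPA and 14.1 with anti-ER), at chr10:66684632-66684938 between genes 185612 bp from Reep3 (12.1 and 12.0), and at chr5:90425340-90425630 in an exon 892 bp from a start site of Ankrd17 (15.8 and 10.3). The Reep3 site also had p42 and no p30 H3K4me1. The Ankrd17 window held a C/EBP:ATF4 sequence, the Reep3 window a C/EBP:AP-1 sequence and the Glipr1 window TTGCNNAA alone. The best ranked promoter sites lay 662 bp upstream of Fbxo15, in no mark list, 177 bp upstream of Nln, in the untreated p42 H3K27ac list alone, and 656 bp upstream of Txnl4a, in all 4 H3K27ac lists. The best ranked sites with a CEBP sequence in the windows of both summits, near Cep85l, Slc25a17 (a peroxisomal carrier) and Bcr, were in no mark list. The Slc25a17 site, in an intron at chr15:81223403-81223714, was the strongest p42-only site by anti-CEBPA alone, at rank 5546 of 47489 and 18.1-fold.

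The p42-only sites were spread over many genes. They had 1107 different nearest genes, 5.13% of 21584 protein-coding genes, and 993 of these had a single site. Chd7, a chromatin remodeller gene, had the most, with 5 sites in its introns at folds of 4.75 to 8.41 with anti-CEBPA, and 6 shared sites. Of its 5 sites, 3 were in the untreated p42 H3K27ac list and not the p30 one, 1 was in both and 1 in neither. Pde1a came next with 4 sites, none of them in p42 without p30 H3K27ac.

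For 14 gene lists of hematopoietic and inflammatory function, the genes nearest to a p42-only site are to be read beside the 5.13% of all genes. They are also to be read beside shared sites, which were nearest to 36.6% of all genes. In the 14 lists, shared sites were nearest to between 46.2% (interferon-stimulated genes) and 90.9% (immediate early genes and MAPK phosphatases). Every list thus stood above all genes for shared sites, so a share above that of all genes was not particular to p42-only sites. Whether the size of the excess differed between p42-only and shared sites was not tested. NF-kB subunits and inhibitors had 6 of 16 genes (37.5%, 18.5 to 61.4): Nfkb1, Nfkb2, Nfkbia, Nfkbiz, Ikbkb and Tnip1, with 1 site each. Shared sites were nearest to 50.0% of this list. At the Tnip1 site, in an intron of a gene for a brake on NF-kB signalling, both p30 H3K27ac lists had a peak and the p42 lists did not. Stem and progenitor transcription factors had 5 of 20 genes, and hematopoietic surface and adhesion genes 5 of 22, while shared sites were nearest to 75.0% and 86.4% of these lists. The stem factor site near Bcl11a (11.1-fold with anti-CEBPA) was in the p30 H3K27ac list with LPS and the p30 H3K4me1 list. It was in no p42 mark list. The site near Lmo4 (8.64-fold) was in no mark list. The pair of sites near Cxcr4, the receptor that keeps progenitors in the marrow, lay 21792 and 5293 bp from its start site with folds of 9.87 and 9.51 and had no H3K27ac in any list. C/EBP family and Tribbles regulators had 2 of 10 genes, Trib1 and Cebpg, with 2 sites each. Trib1 encodes an adaptor that directs CEBPA to degradation. The Cebpg sites lay between Cebpg and Cebpa, 50229 and 38482 bp from the Cebpa start site. The one closer to Cebpa was in all 4 H3K27ac lists and only 39 bp from a p30 peak.

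In the Toll-like signalling list 3 of 24 genes had one, Tlr4 with 2, Tlr1 and Map3k7. The better ranked Tlr4 site, 5614 bp upstream of the start site of the LPS receptor gene, was in no mark list. The Map3k7 site, in an exon with a CEBP sequence, was in the untreated p42 H3K27ac list alone. Chemokines had 3 of 20 (Ccl6, Cxcl5, Cxcl9) and cytokines 2 of 22 (Ifnb1, Il6). The Il6 site, 40077 bp upstream of the start site with a C/EBP:ATF4 sequence, was in all 6 mark lists. AP-1 family genes had 2 of 22, Atf6 and Atf7, with no site nearest to a Fos or Jun gene, while shared sites were nearest to 77.3% of that list. Immediate early genes and MAPK phosphatases had 3 of 22 (Klf6, Zfp36l1, Zfp36l2), and the stress list had Xbp1 alone of 20 genes, with 2 sites.

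Myeloid genes followed the same range. Neutrophil granule and effector genes had 4 of 27, Cd177, Itgb2, S100a8 and, with 2 sites, Ltf. The S100a8 site lay in the promoter, 6 bp upstream of a start site, at 8.64-fold with anti-CEBPA and 7.55-fold with anti-ER, with a PU.1 sequence, no C/EBP sequence and no mark peak. The better ranked Ltf site, 994 bp upstream of the start site of the lactoferrin gene, was in both p42 H3K27ac lists and neither p30 list, but its H3K4me1 peak was in the p30 list and not in the p42 list. Myeloid fate transcription factors had 3 of 20 (Gfi1, Runx2, Zeb2), and the Runx2 site showed the same 4-list H3K27ac pattern as Ltf. Among interferon-stimulated genes, Oasl1 and Rsad2 were nearest to a p42-only site. The Rsad2 site had p42 H3K27ac with LPS alone. Growth factor receptors had 2 of 20, with an Il6st promoter site in no mark list and a Kit site in all 6. The markers of other lineages had none of 17.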

How the data were processed

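ChIP-seq peak lists of HPC-7 cells were analysed. Groups came from the sample labels, and 19 further samples were input. In the study's methods, reads were trimmed with Trim Galore (version 0.6.6 in the submitters' processing notes), aligned to mm39 with Bowtie2, freed of Picard duplicates and called as narrow peaks with MACS2 against input. H3K27ac and H3K4me1 replicates were pooled. The deposited anti-CEBPA lists lack a mark of model-free calling that the other lists carry, so settings possibly differed between antibodies. Each deposited list gives a fold enrichment, a −log10 p-value and a −log10 q-value at the summit, all below a q-value of 0.05, used here only within a list. CEBPA peaks were ranked by the p-value and mark peaks by the q-value. The list from human cells was not used.

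Sites, marks (summit inside a peak), places (GENCODE M39 on GRCm39, the same assembly as mm39) and 21 sequences in 200 bp windows on both strands were computed with Python 3.11.15, numpy 2.4.6, pandas 2.3.3 and pysam 0.24.0. Windows overlapping an untranslated region were not printed. Shared sites were weighted to the members' 10 classes of anti-CEBPA rank, or of anti-ER rank. Intervals are Wilson 95% intervals, or normal ones for paired and weighted differences. They treat sites as independent. Library depth is not given by peak lists.

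The named sites were the best by mean rank percentile of both p42 lists in each of several classes. These were all (5), distal with H3K27ac in the p42 lists alone (3), promoter (3) and CEBP sequence in the windows of both summits (3). The other classes were composite sequence (3), each gene list (2) and each gene with 5 or more. The 3 nearest to and farthest from a p30 peak were added. The members and lists were chosen with earlier results of these data known. The steps were tested on simulated data. Some results of the marker and gene lists are not reported here. Alternatives were other q-values, equal list sizes, other overlaps, windows, promoters, mark distances and weightings.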

Additional observations from a re-analysis of the deposited data

How the results depend on the processing

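Of 71 alternative values, 46 stayed within the main interval or, for the count, within 1.5 times. The number of p42-only sites (1240) became 16402 without the anti-ER requirement, 4066 with absence from the anti-CEBPA p30 list alone and 1896 with absence from the anti-ER p30 list alone. With all 4 CEBPA lists cut to equal length the promoter share was 4.09%, the CEBP share 18.4%, the H3K27ac share 29.2% and the H3K4me1 share 18.8%, and with summits within 100 bp the H3K27ac share was 36.6%. The promoter share was 14.5% within 2500 bp and, added after seeing the data, 10.2% with start sites of genes of every type. The CEBP share was 0.565% for the exact palindrome and 50.0% for TTGCNNAA. With mark peaks under a q-value of 1e-05 the H3K27ac and H3K4me1 shares were 31.0% and 17.7%. With any overlap of the site they were 46.0% and 34.3%, and within 1000 bp 58.4% and 52.9%, while the p42 minus p30 difference was 21.4 and 20.4 points. Against shared sites weighted by anti-ER rank, the CEBP difference was −11.8 points and the promoter difference −2.71, and the H3K27ac difference changed sign to 0.192 points. Against sites in all 4 lists, the H3K27ac difference was −28.1 and the promoter difference −8.33 points. The causes of these shifts were not tested. No paired analysis was possible because each CEBPA list holds 1 library, the mark lists are pooled over replicates, and no value comes from a test. For the same reason no replicate could be left out.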
